A study of Mus musculus with 4 samples.

Results

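Heme is the iron-containing ring that lets proteins carry oxygen and pass electrons, and every nucleated cell makes it, recycles its iron and guards against its excess. Its synthesis starts and ends in mitochondria, with a middle stretch in the cytosol. Heme oxygenases open the ring, which frees iron, carbon monoxide and biliverdin, and biliverdin reductases turn biliverdin into bilirubin. FLVCR proteins of the membrane have been described as exporters of heme, and later work has tied them to choline transport as well. The genes described here are 10 of this pathway, chosen by name: 4 of synthesis (Alas1, Urod, Cpox, Fech), 4 of breakdown (Hmox1, Hmox2, Blvra, Blvrb) and 2 of export (Flvcr1, Flvcr2). The platform annotation assigned 18 of the 45037 non-control probe sets to exactly 1 of these genes.

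The samples were 4 mouse fibroblast lines of LMTK- cells, an L cell line without thymidine kinase, each measured once on an Affymetrix Mouse Genome 430 2.0 Array. The MTf group was 2 stable clones, MTf 4 and MTf 6, that carried the plasmid pCI-neo with the cDNA of mouse melanotransferrin, a membrane-anchored iron-binding protein of the transferrin family. The vector group was 2 lines, vector 1 and vector 2, that carried pCI-neo alone, so all 4 lines had been transfected with that plasmid. Each MTf line is 1 clone, whose own history cannot be told apart from the effect of the transgene; for the vector lines no label states this. With 1 array per line, the tests know only how these 4 lines vary.

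Values are scaled array signals. Differences and folds were computed on log2(signal + 32), which understates the change of dim probe sets, and are MTf minus vector unless stated. In RNA of whole cultures, fewer cells that express a gene and less of its RNA per cell cannot be told apart. Signals of different probe sets cannot be set against each other. Meltf, the gene of melanotransferrin, had signals of 1519 in MTf 4 and 1885 in MTf 6, against 265 in vector 1 and 274 in vector 2. Its difference was 2.52 (95% interval 1.96 to 3.07), with an adjusted p = 0.0903 from limma over the 22519 probe sets tested. Of 10 fibroblast markers 7 passed the filter on low signals, set at about 196, among them Vim and the collagen genes Col1a1 and Col1a2. Dcn, Lum and Thy1 did not.

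Of the 18 heme gene probe sets 16 passed the filter, and they covered 9 of the 10 genes. Flvcr2 and 1 of the 4 Fech probe sets did not pass and were not tested. None of the 16 was called: limma gave 0 at an adjusted threshold of 0.05, where 0.00444% of all probe sets tested were called, and 0 at an unadjusted 0.05, where the share of all was 1.9% (1.04% higher and 0.861% lower). The differences of the 16 were positive in 9 and negative in 7, with a median of 0.06 and a range of -0.52 to 0.43, and over all probe sets tested the median was -0.0068. The clones and the vector lines did not overlap in 5 of the 16, 3 with the clones above and 2 with the clones below, beside 25.8% of all probe sets tested (12.2% above and 13.6% below). The adjusted p was 1.00 for each of the 16.

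The promoter sequences of Flvcr1, Urod and Blvra are shown because of their place among the tested heme gene probe sets. Flvcr1 had the lowest difference, Urod the highest, and Blvra the widest range over the 4 lines. They are RefSeq sequences of build GRCm38.p6, each 300 bases long, from 250 bases before to 50 after a gene's start, written 5′ to 3′ on the gene's strand. The Flvcr1 window is chr1:191026141-191026440 (minus strand), that of Urod is chr4:116994364-116994663 (minus strand) and that of Blvra is chr2:127070407-127070706 (plus strand). Capitals mark matches to the motifs named after the sequences.
Flvcr1: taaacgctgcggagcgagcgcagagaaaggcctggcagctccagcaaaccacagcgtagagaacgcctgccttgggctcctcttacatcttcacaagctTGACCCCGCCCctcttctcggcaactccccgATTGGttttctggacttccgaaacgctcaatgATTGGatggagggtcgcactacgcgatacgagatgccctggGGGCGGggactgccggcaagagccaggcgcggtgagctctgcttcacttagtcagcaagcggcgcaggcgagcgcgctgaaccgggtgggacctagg
Urod: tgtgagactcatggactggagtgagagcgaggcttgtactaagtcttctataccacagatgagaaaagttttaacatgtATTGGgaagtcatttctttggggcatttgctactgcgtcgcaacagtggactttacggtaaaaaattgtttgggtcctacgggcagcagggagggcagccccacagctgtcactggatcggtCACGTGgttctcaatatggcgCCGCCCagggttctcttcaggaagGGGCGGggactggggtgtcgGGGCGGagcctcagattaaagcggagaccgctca
Blvra: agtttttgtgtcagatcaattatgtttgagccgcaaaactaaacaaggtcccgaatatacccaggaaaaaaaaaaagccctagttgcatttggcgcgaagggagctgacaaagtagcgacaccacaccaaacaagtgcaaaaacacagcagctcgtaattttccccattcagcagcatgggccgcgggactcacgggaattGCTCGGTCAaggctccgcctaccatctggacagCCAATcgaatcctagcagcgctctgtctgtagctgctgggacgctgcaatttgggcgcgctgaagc

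Motifs were searched on both strands, and a match is a description of letters, not a site. The Flvcr1 window held 2 GC boxes (GGGCGG), 2 CCAAT boxes (CCAAT) and 1 core of the antioxidant response element (TGACNNNGC), which overlapped 1 of the GC boxes. The Urod window held 3 GC boxes, 1 CCAAT box and 1 E-box (CACGTG), and that of Blvra 1 CCAAT box and 1 antioxidant response element core. Of all 32851 promoter windows of this length, 35.7% held the GC box, 37.4% the CCAAT box, 7.15% the E-box and 12.4% the antioxidant response element core. Member windows on chromosome 18, where Fech lies, were left out of the search. With that, 8 of the 10 genes matched the promoter table, with 12 windows. Of the 12 windows 7 held the GC box, 3 the CCAAT box, 2 the E-box and 2 the antioxidant response element core. The TATA box (TATAAA) was in 0 of the 12 and in 13.6% of all windows. Alas1, Hmox2 and Blvrb had more than 1 window, and windows of Alas1 and of Hmox2 overlapped, so the 12 are not independent.

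Genes of heme synthesis had 10 tested probe sets, 7 with a positive and 3 with a negative difference. Alas1 encodes the housekeeping form of 5-aminolevulinate synthase, the first and usually rate-limiting enzyme. By 1424126_at, the brighter of its probe sets, it had signals of 2124 in MTf 4 and 1649 in MTf 6, against 1623 in vector 1 and 1845 in vector 2. MTf 4 was thus the highest line, MTf 6 lay close to vector 1, and the groups overlapped. The difference was 0.11 (95% interval -0.40 to 0.62). A dimmer probe set of the same gene, 1455282_x_at, gave 326 in MTf 4 and 244 in MTf 6, against 199 in vector 1 and 205 in vector 2. Here both clones lay above both vector lines, with a difference of 0.43 (95% interval -0.33 to 1.18) and an unadjusted p = 0.229 from limma. Without MTf 4 it was 0.24. By Affymetrix naming, the ending x_at marks probes that may also bind other transcripts.

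Urod, uroporphyrinogen decarboxylase, works in the cytosolic stretch and removes carboxyl groups from the ring's side chains. By 1443849_x_at its signals were 4836 in MTf 4 and 4144 in MTf 6, against 2665 in vector 1 and 4117 in vector 2. MTf 6 and vector 2 were almost level, and vector 1 stood below the other 3 lines. The difference of 0.43 (95% interval -0.15 to 1.01) was therefore smaller than the one between the vector lines, 0.62. The other Urod probe set, 1417206_at, gave 2009 in MTf 4 and 1707 in MTf 6, against 1278 in vector 1 and 1928 in vector 2. It again had MTf 4 highest and vector 1 lowest, but vector 2 lay above MTf 6 and the groups overlapped. Without vector 1 the difference was 0.12 by the first probe set and -0.06 by the second. Vector 1 was thus low by both probe sets, and vector 2 was 1.54-fold above it by the first. Urod lies on chromosome 4, whose 641 tested genes stood at a median of -0.07 in MTf 4 and 0.29 in MTf 6, against -0.11 in vector 1 and -0.08 in vector 2, each relative to the mean of the other lines, and the part of this in the values of Urod was not tested.

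Cpox, coproporphyrinogen oxidase, acts in the space between the mitochondrial membranes. By 1422492_at its signals were 1884 in MTf 4 and 3019 in MTf 6, against 3030 in vector 1 and 2217 in vector 2. MTf 6 and vector 1 were level and high, MTf 4 and vector 2 were low, and each group held 1 line of either kind. The difference between the groups was -0.12 (95% interval -0.77 to 0.53), while MTf 6 was 1.59-fold above MTf 4 and vector 1 was 1.36-fold above vector 2. By 1440747_at the signals were 198 in MTf 4 and 263 in MTf 6, against 249 in vector 1 and 160 in vector 2, with the same 2 lines high. By 1422493_at they were 1232 in MTf 4 and 1697 in MTf 6, against 1331 in vector 1 and 1268 in vector 2, so that MTf 6 alone stood out. MTf 6 was above MTf 4 by all 3 probe sets.

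Fech, ferrochelatase, inserts iron into protoporphyrin and so joins the pathway to iron supply. By 1418699_s_at its signals were 6230 in MTf 4 and 5391 in MTf 6, against 6085 in vector 1 and 5693 in vector 2. Both vector lines lay between the clones, and the difference was -0.02 (95% interval -0.45 to 0.40). By 1449181_at they were 4137 in MTf 4 and 2887 in MTf 6, against 3431 in vector 1 and 3511 in vector 2, with the same order of the clones and a difference of -0.0058 (95% interval -0.53 to 0.52). The third probe set, 1418698_a_at, gave 2972 in MTf 4 and 3188 in MTf 6, against 2508 in vector 1 and 2608 in vector 2. Both clones were above both vector lines there, with a difference of 0.26 (95% interval -0.17 to 0.70) and an unadjusted p = 0.198 from limma. A dim and untested probe set, 1427696_at, was at 110 in MTf 4 and between 30.0 and 36.7 in the other 3 lines.

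**Figure D1:**
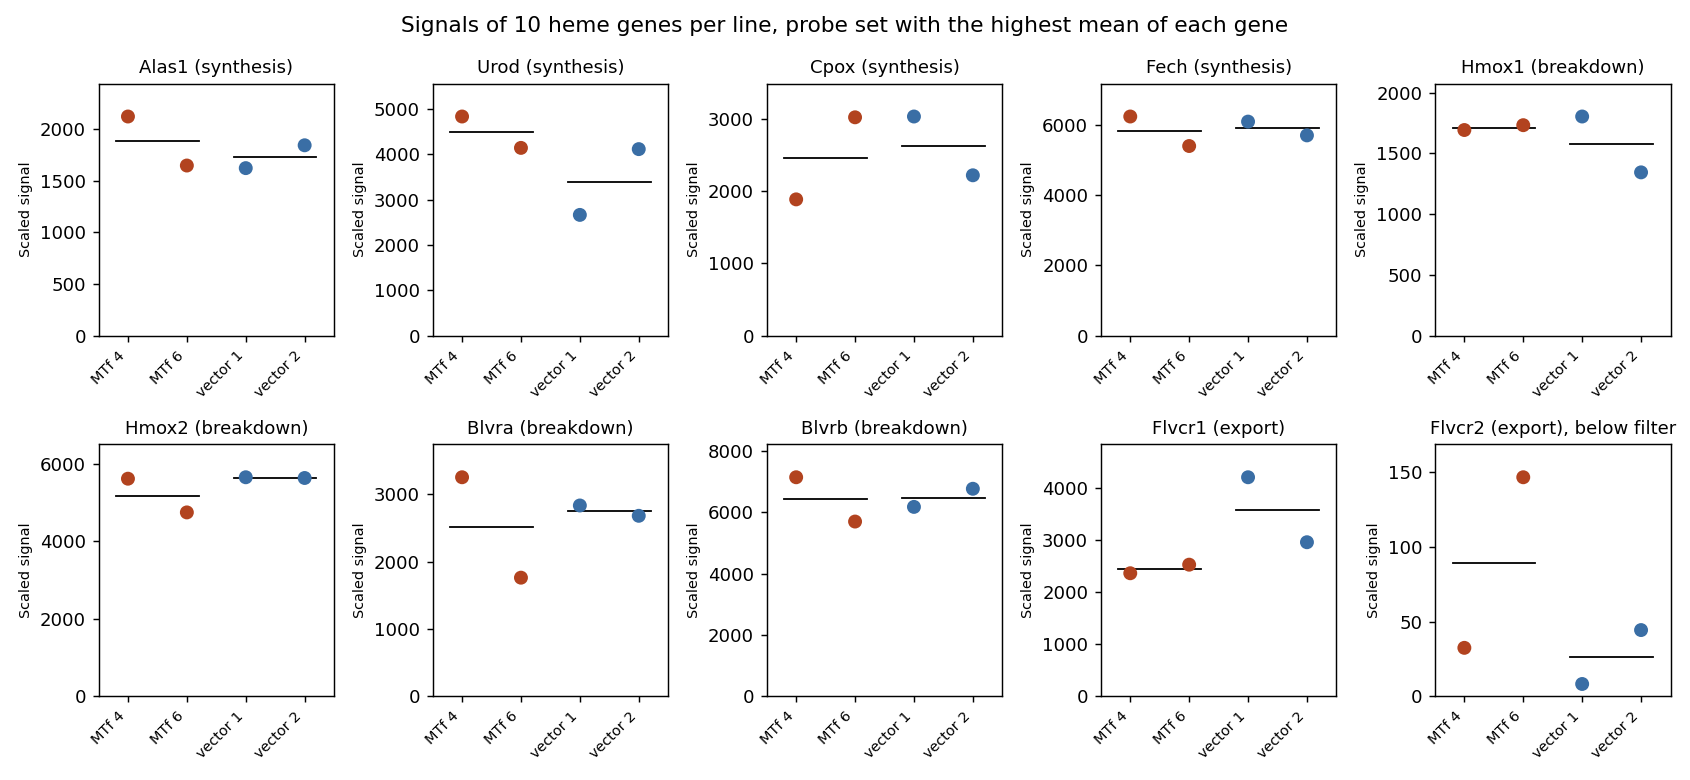
Scaled signal (vertical axis, from 0) of each heme gene by its brightest probe set, in MTf 4, MTf 6, vector 1 and vector 2, with 1 point per array and a line at each group's mean of 2 arrays. Cpox splits each group into a high and a low line, Blvra is lowest in MTf 6 at 1761, Urod is lowest in vector 1 at 2665, and Flvcr1 is highest in vector 1 at 4214.

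Genes of heme breakdown had 1 probe set each, 1 with a positive and 3 with a negative difference. Hmox1, the inducible heme oxygenase and a classic target of NRF2 and BACH1, had signals of 1692 in MTf 4 and 1732 in MTf 6, against 1803 in vector 1 and 1343 in vector 2. The clones were nearly equal and lay between the vector lines, and the difference was 0.13 (95% interval -0.39 to 0.66). Without vector 2 it was -0.07. Hmox2, the constitutive heme oxygenase, gave 5615 in MTf 4 and 4746 in MTf 6, against 5653 in vector 1 and 5634 in vector 2. Both clones were below both vector lines, but MTf 4 lay close to them, and the difference was -0.13 (95% interval -0.56 to 0.30). Without MTf 6 it was -0.0071, and without MTf 4 it was -0.25.

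Blvra, biliverdin reductase A, makes bilirubin in adult tissues. Its signals were 3251 in MTf 4 and 1761 in MTf 6, against 2833 in vector 1 and 2679 in vector 2. MTf 4 was the highest line and MTf 6 the lowest, so the group difference of -0.20 (95% interval -0.88 to 0.48) stood beside a 1.83-fold difference between the 2 clones. The difference between the clones was larger in size than for 92.8% of all probe sets tested. It was the largest of the 16 heme gene probe sets, and the largest of 16 is likely to rank high. The difference between the vector lines was small, at -0.08. Without MTf 6 the group difference was 0.24. Blvrb, biliverdin reductase B, also reduces flavins and acts on the biliverdin of fetal tissue. Its signals were 7138 in MTf 4 and 5695 in MTf 6, against 6172 in vector 1 and 6762 in vector 2. It had the same highest and lowest line as Blvra over a narrower range, with a difference of -0.02 (95% interval -0.47 to 0.43).

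The likeness of other genes to Blvra was measured as the root mean square difference in log2 values over the 4 arrays, each gene centred on its own mean. The 5 closest were Tnrc18 (0.0068), Crb3 (0.016), Naif1 (0.018), Emp3 (0.034) and Otud7b (0.034), among 5849 named probe sets whose range over the 4 arrays was no more than 0.2 below that of Blvra, 0.87. Of these probe sets 136 lay within 0.1 of Blvra. Tnrc18 had signals of 2346 in MTf 4 and 1273 in MTf 6, against 2059 in vector 1 and 1923 in vector 2, the same order of the lines as Blvra. With 4 arrays many genes share such an order.

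Of the exporters, Flvcr1 had the lowest difference among the heme genes. By 1434424_at its signals were 2368 in MTf 4 and 2533 in MTf 6, against 4214 in vector 1 and 2965 in vector 2. Both clones lay below both vector lines, and vector 1 stood apart at 1.42-fold above vector 2. The difference was -0.52 (95% interval -1.05 to 0.0046), or 0.696-fold, with an unadjusted p = 0.0516 and an adjusted p = 1.00 from limma. Without vector 1 it was -0.27. In size the difference was above 93.6% of all probe sets tested. It was also the largest of the 16 heme gene probe sets, and the largest of 16 is likely to rank high. A second and dimmer Flvcr1 probe set, 1425399_at, had signals of 277 in MTf 4 and 316 in MTf 6, against 243 in vector 1 and 359 in vector 2. It placed vector 1 lowest where the first had it highest, and its difference was 0.00031 (95% interval -0.74 to 0.74), so 1 of the 2 probe sets had both clones below both vector lines.

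Flvcr2, a relative of Flvcr1 also described as a transporter of heme and choline, was below the filter. Its signals read 32.5 in MTf 4 and 147 in MTf 6, against 8.30 in vector 1 and 44.4 in vector 2. MTf 6 stood above the other 3 lines, and MTf 4 lay below vector 2.

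**Figure D2:**
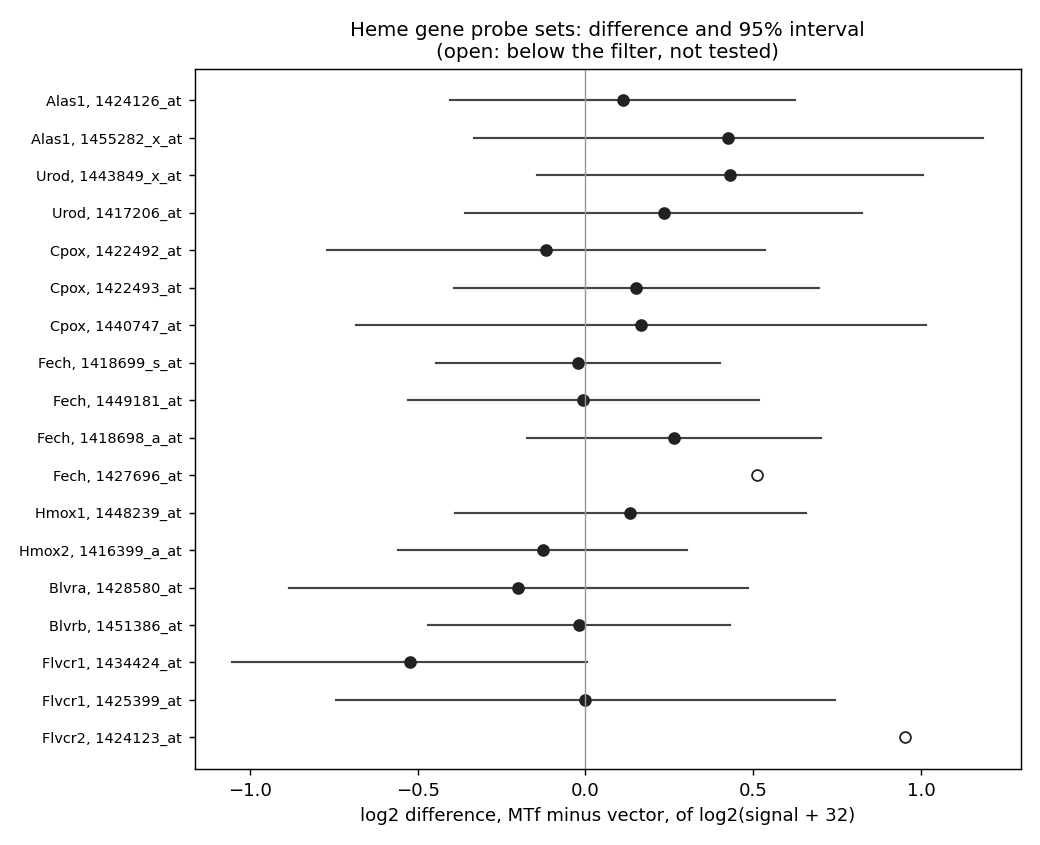
Log2 difference, MTf minus vector, of log2(signal + 32) (horizontal axis) for the 18 heme gene probe sets, with 95% intervals from limma for the 16 tested and open points for the 2 below the filter. Every interval holds 0, and that of Flvcr1 by 1434424_at, from -1.05 to 0.0046, reaches it at its upper end.

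Probe sets of the same gene often disagreed. Of 5 genes with more than 1 tested probe set, 2 (Alas1 and Urod) had the same sign by all of them, and the same 2 had the same highest and the same lowest line. Cpox, Fech and Flvcr1 had differences of both signs. Averaged over their tested probe sets, a choice made after the data were seen, the differences were 0.27 for Alas1, 0.33 for Urod, 0.066 for Cpox, 0.079 for Fech and -0.26 for Flvcr1.

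**Figure D3:**
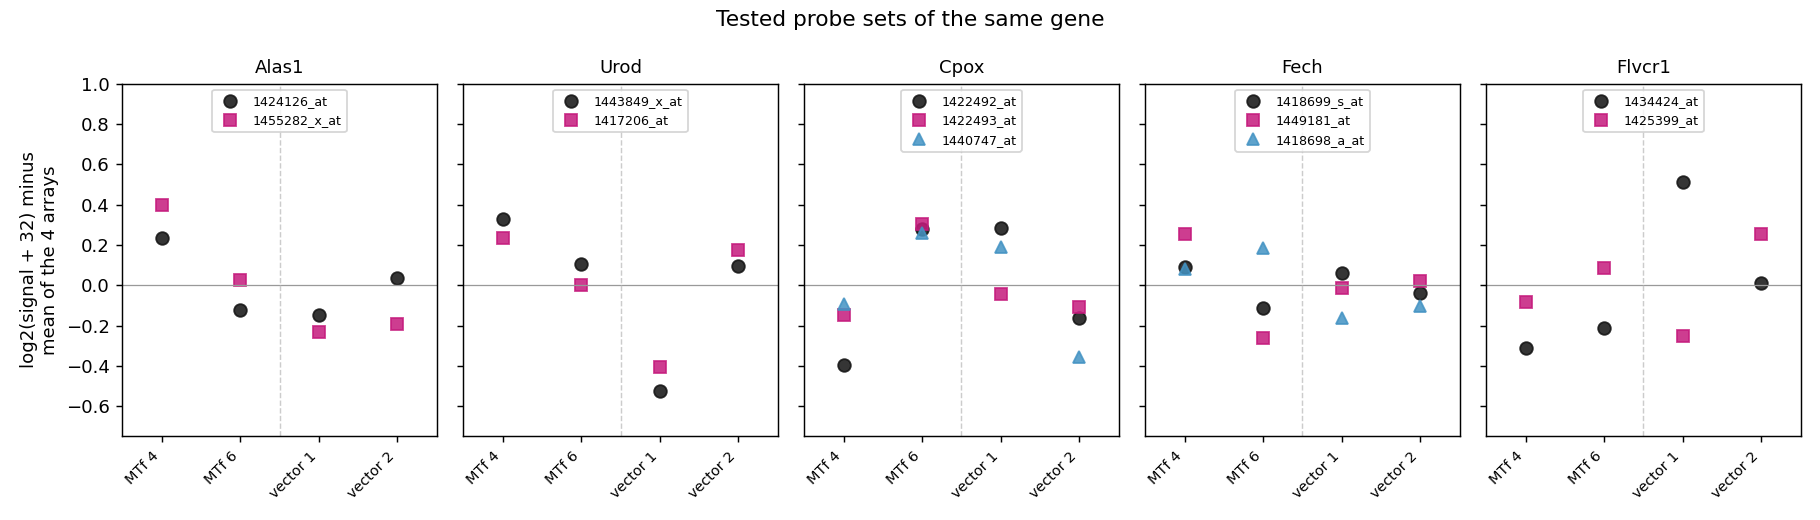
Log2(signal + 32) minus the mean of the 4 arrays (vertical axis) in MTf 4, MTf 6, vector 1 and vector 2 for the tested probe sets of 5 heme genes, with 1 symbol per probe set. Both Urod probe sets put vector 1 lowest, whereas the 2 Flvcr1 probe sets put vector 1 at opposite ends.

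Within each group the 2 lines also differed, by amounts not small beside the group differences, although a group difference is one of means of 2 arrays, which vary less than single arrays. The median size of the difference between the clones was 0.28 over the 16 heme gene probe sets and 0.29 over all tested. Between the vector lines it was 0.16 and 0.24, and between the groups 0.14 and 0.14. For 13 of the 16 the group difference was smaller than the larger of the 2 differences within the groups, as it was for 84.1% of all probe sets tested. The 3 others were 1 probe set each of Alas1 (1455282_x_at), Fech (1418698_a_at) and Flvcr1 (1434424_at). MTf 4 was the highest line for 8 of the 16, where it was highest for 30.4% of all probe sets tested. Vector 1 was the lowest for 6, beside 23.9% of all, and the highest for 4, beside 23.8%. MTf 6 was the lowest for 5, beside 29.3%. Some genes enter these counts with more than 1 probe set. By the brightest probe set of each of the 10 genes, the untested Flvcr2 among them, MTf 4 was highest for 5 and lowest for 2. MTf 6 was highest for 1 and lowest for 4, and vector 1 was highest for 4 and lowest for 3.

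**Figure D4:**
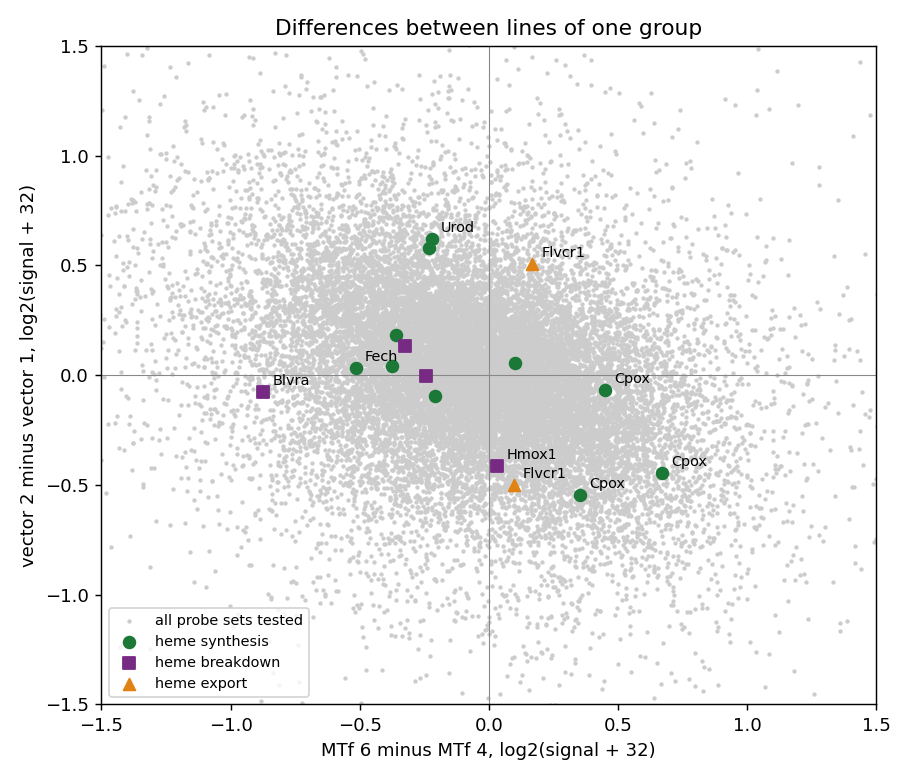
Difference MTf 6 minus MTf 4 (horizontal axis) against vector 2 minus vector 1 (vertical axis), both of log2(signal + 32), for the 16 tested heme gene probe sets by role and, in grey, for all 22519 tested. All 16 lie inside the axes, 439 grey points lie beyond 1.5 and are not drawn, and Blvra reaches farthest along the horizontal axis (-0.87) and Urod along the vertical (0.62).

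Other enzymes of the pathway were taken from a list, with each gene read from its brightest probe set. Of these 3 passed the filter, all 3 had a positive difference, 0 were called by limma after adjustment and 1 was past an unadjusted 0.05. The median of the 3 was 0.36, beside -0.0055 over all 10682 genes tested. Ppox, protoporphyrinogen oxidase, makes the ring that ferrochelatase fills. By 1416618_at it had signals of 768 in MTf 4 and 438 in MTf 6, against 207 in vector 1 and 318 in vector 2. Both clones were above both vector lines, with a difference of 1.08 (95% interval 0.25 to 1.92) and an unadjusted p = 0.0177 from limma, but an adjusted p = 1.00. Its other tested probe set, 1448065_at, had a difference of the opposite sign, with signals of 179 in MTf 4 and 148 in MTf 6, against 303 in vector 1 and 328 in vector 2. That difference was -0.83 (95% interval -1.58 to -0.08), with an unadjusted p = 0.0340 from limma, so the array gave no single direction for Ppox.

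Alad, aminolevulinate dehydratase, joins pairs of aminolevulinate in the cytosol. By 1424877_a_at it gave 5601 in MTf 4 and 7832 in MTf 6, against 5135 in vector 1 and 5140 in vector 2, with a difference of 0.36 (95% interval -0.13 to 0.86). MTf 6 stood above the other 3 lines, and Alad lies on chromosome 4, whose genes were higher in MTf 6 by the median of 0.29 given above; its part in this value was not tested. By 1457306_at Alad gave 315 in MTf 4 and 488 in MTf 6, against 357 in vector 1 and 373 in vector 2, and the groups overlapped. Uros encodes uroporphyrinogen III synthase. By 1423482_at it gave 1334 in MTf 4 and 753 in MTf 6, against 894 in vector 1 and 1030 in vector 2. The clones were at either end, with a difference of 0.06 (95% interval -0.63 to 0.76). By 1440535_at, a dimmer probe set, the difference was 0.27 (95% interval -0.55 to 1.08). MTf 4 was again highest there, at 305, but vector 2 was lowest, at 191. MTf 6 lay between the vector lines by that probe set. Alas2, the erythroid form of aminolevulinate synthase, was between 7.80 and 34.6 in all 4 lines, below the filter.

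**Figure D5:**
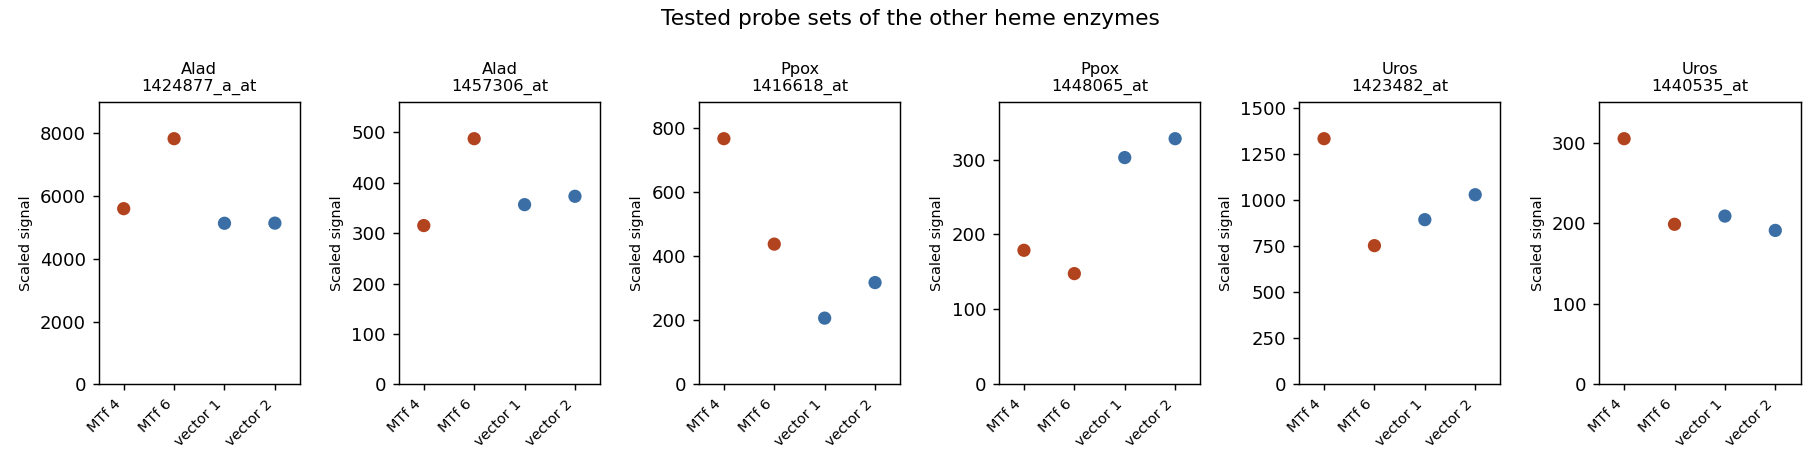
Scaled signal (vertical axis, from 0) of the 6 tested probe sets of Alad, Ppox and Uros in MTf 4, MTf 6, vector 1 and vector 2, with 1 point per array. The 2 Ppox probe sets separate the groups in opposite directions, at 438 or more against 318 or less in one and at 179 or less against 303 or more in the other.

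Around the pathway, 0 genes were called by limma and 0 were past an unadjusted 0.05 in any of 4 further lists, again with the brightest probe set of each gene. Of 14 tested genes of heme transport, binding and scavenging, 7 had a positive and 7 a negative difference (median 0.03). Pgrmc1, a heme-binding membrane protein that has been found with ferrochelatase, gave 8281 in MTf 4 and 7832 in MTf 6, against 9284 in vector 1 and 9392 in vector 2, a difference of -0.21. Lrp1, a receptor that takes up heme bound to hemopexin, had a difference of 0.42, with MTf 4 at 6874 and MTf 6 at 3215, against 5210 in vector 1 and 2353 in vector 2, and the groups overlapped. Abcb6, a porphyrin transporter, had a difference of 0.18.

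Of 13 regulators of heme genes, 4 had a positive and 9 a negative difference (median -0.03). Bach1, the heme-sensing repressor of Hmox1, gave 2725 in MTf 4 and 2370 in MTf 6, against 2229 in vector 1 and 3004 in vector 2, a difference of -0.03. It is given outside the naming rule, as is Nfe2l2, the gene of NRF2, which differed by -0.07. Mafk and Mafg, small MAF partners of both factors, had differences of -0.38 and 0.15. Both clones were below both vector lines for Mafk and above them for Mafg. Ppargc1a, a coactivator of Alas1 in liver, had a difference of -0.21. It gave 7778 in MTf 4 and 2886 in MTf 6, against 5063 in vector 1 and 5912 in vector 2. The clones were thus at either end. Among 9 other targets of NRF2 and BACH1, 3 had a positive and 6 a negative difference (median -0.07). Srxn1, sulfiredoxin, differed by -0.32 with both clones below both vector lines. Fth1, ferritin heavy chain, differed by 0.12 and Slc7a11, the cystine transporter, by -0.22, and the groups overlapped for both genes. Of 7 hemoproteins and their reductases 1 had a positive and 6 a negative difference (median -0.11). Among the 7, 4 had both clones below both vector lines, as 12.7% of all genes tested did. These 4 were Cyb5b, a cytochrome b5 of the outer mitochondrial membrane (-0.31), Cyb5r3 (-0.11), Cyc1 (-0.09) and Cycs (-0.05). Cyp51, the sterol demethylase, differed by -0.20 and Cyb5a, the cytochrome b5 of the endoplasmic reticulum, by -0.22. The groups overlapped for Cyp51 and for Cyb5a.

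Markers of other cells that make or clear much heme were measured as well. Of 10 erythroid markers 6 were on the array with a single gene and 3 passed the filter, and the summed signal of the 6 was 991 in MTf 4 and 1012 in MTf 6, against 1042 in vector 1 and 1079 in vector 2. Klf1, Gata1 and Epor were the 3 that passed, with differences of -0.68, 0.51 and -0.12. Both clones were below both vector lines for Klf1 and Epor and above them for Gata1. Signals lay between 155 and 286 for Klf1 and between 189 and 290.5 for Gata1, close to the filter of about 196. Of 6 macrophage markers 3 passed (Adgre1, Csf1r and Cd68), all with a negative difference. Adgre1 had both clones below both vector lines, but the groups overlapped for Csf1r and Cd68. Itgam, below the filter and untested, had both clones above both vector lines, with a difference of 1.61. Cd163 (-0.41) and Ptprc (-0.38) were also untested, and the groups overlapped for both. Signals of all 6 summed to 1553 in MTf 4 and 971 in MTf 6, against 1385 in vector 1 and 1383 in vector 2. The hepatocyte markers, of which 4 of 5 were measured, had 0 past the filter. The sum of the 10 fibroblast markers was 215748 in MTf 4 and 186299 in MTf 6, against 178310 in vector 1 and 191124 in vector 2. Vim, S100a4 and Col1a2 dominated that sum, at 94073, 75392 and 30047 in MTf 4, so it says little of the dimmer markers. The part of any of these cell types in the values of the heme genes was not tested.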

How the data were processed

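The authors deposited 1 intensity per probe set and array, on a linear scale, from the software GCOS 1.3, per the submitters' processing notes, with settings not given in the sources. The 2%-trimmed mean was 1000.01 on all 4 arrays, so the values were used as deposited. Probe sets with a mean of log2(signal + 32) below the median of non-control probe sets were left out. limma 3.58.1 in R 4.3.3 (lmFit, eBayes with a trend) compared MTf with vector over 22519 probe sets, with Benjamini-Hochberg adjustment. It was also run on simulated data with independent normal values. Those data held no effect of the single clone, so the run cannot tell how the test fares with such effects. With 2 arrays per group the smallest exact two-sided permutation p is 0.333, and the number of arrays limits the precision. Genes came from the platform annotation, and lists were matched through symbols of GRCm38.p6. For 34945 probe sets it gave 1 gene, for 932 several and for 9160 none. The members and lists were chosen with earlier results of these data known. Named were all members, Meltf, the other heme enzymes and, per further list, the 3 genes with the smallest p. The genes most like a member were sought for the tested member with the widest range by its brightest probe set. Some items are not reported.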

Additional observations from a re-analysis of the deposited data

How the results depend on the processing

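Under 8 other choices of offset, filter, scaling and variance model, besides leaving out each array, 0 heme gene probe sets were called by limma. At an unadjusted 0.05 limma passed Flvcr1 1434424_at under some of the 8 choices. It passed without the filter, where 1608 of 45037 probe sets did, and with robust variances, where 436 of 22519 did. No other heme probe set passed under the 8 choices. Across all probe sets 1 was called, and 0 without the filter (1608 at an unadjusted 0.05), with a filter at the 75th percentile (142) or without the trend (596). With 1 array left out the number lay between 2 and 25, where 1 group is a lone array that is assumed to vary like the other group. Meltf then lay between 2.36 and 2.67. The following tested heme probe sets took either sign with 1 array left out: Alas1 1424126_at (-0.069 to 0.29), Urod 1417206_at (-0.057 to 0.52), Cpox 1422492_at (-0.45 to 0.22), 1422493_at (-0.074 to 0.38) and 1440747_at (-0.11 to 0.44), Fech 1418699_s_at (-0.13 to 0.082) and 1449181_at (-0.26 to 0.25), Hmox1 (-0.074 to 0.34), Blvra (-0.64 to 0.24), Blvrb (-0.18 to 0.14) and Flvcr1 1425399_at (-0.25 to 0.25). The untested Fech 1427696_at did so too (-0.088 to 1.11). Alas1 1455282_x_at lay between 0.24 and 0.61, Urod 1443849_x_at between 0.12 and 0.74, Fech 1418698_a_at between 0.21 and 0.31, Hmox2 between -0.25 and -0.0071 and the untested Flvcr2 between 0.22 and 1.69. Flvcr1 1434424_at stayed between -0.78 and -0.27. Quantile normalization gave 0.0041 for Fech 1449181_at and an offset of 64 gave -0.0013 for Flvcr1 1425399_at. Averaging probe sets, added after the data were seen, gave 0.066 for Cpox, 0.079 for Fech and -0.26 for Flvcr1.

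List medians moved in some settings. The other heme enzymes had 0.21 without the filter and with the filter at the 75th percentile, 0.16 with probe sets averaged, and 0.36 to 0.61 with 1 array left out. With 1 array left out, transport genes lay between -0.11 and 0.078, regulators between -0.12 and 0.13, NRF2 and BACH1 targets between -0.31 and 0.17 and hemoproteins between -0.13 and -0.056. Hemoproteins had -0.16 without the filter and with quantile normalization. The cause was not tested. No paired analysis was possible because the groups share no replicate number.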
